A study of Mus musculus with 6 samples.

Results

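The genes of the major histocompatibility complex (MHC) and of antigen presentation were followed in the muscle of mice with and without a C26 tumor. Members were the probe sets whose gene symbol starts with H2-, the prefix of the mouse MHC genes, or is one of 14 listed symbols of the antigen presentation pathway. This gave 54 members of the 21212 probe sets on the array, 41 by the H2- prefix and 13 by the list. Nlrc5, H2-Q9 and H2-T18 fit the rule but were not analysed here. The muscles came from male CDF1 mice, a cross of BALB/c and DBA/2, bought at 8 weeks of age. C26 mice received C26 colon adenocarcinoma cells in PBS/matrigel under the skin of both flanks and control mice received PBS/matrigel alone. Gastrocnemius and plantaris muscles were taken at day 25 after inoculation, when the C26 muscles were atrophied. Each of the 3 control and 3 C26 arrays carried RNA pooled from 2 or 3 muscles of 3 control and 4 C26 mice. The mice behind each pool are not given, so pools may share a mouse and p-values measure only the spread between pools.

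MHC class I molecules stand on nearly all nucleated cells and show peptides made in the cytosol to CD8 T cells, while MHC class II molecules stand mainly on dendritic cells, macrophages and B cells and show endosomal peptides to CD4 T cells. The invariant chain Cd74 guides class II molecules to the endosome, where H2-DM exchanges its remnant for a peptide. Interferon gamma raises both classes, through Nlrc5 for class I and Ciita for class II. Healthy muscle fibers carry little class I, and most class II in muscle lies on cells between the fibers.

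Values are log2 expression from robust multi-array analysis (RMA), so a difference of 1 is a doubling. A gene "rose" or "fell" where limma's adjusted p over all probe sets was at most 0.05 and the change at least 1.5-fold. The background level, 3.82, was the 95th percentile of 1290 olfactory and vomeronasal receptor probe sets. All 13 muscle fiber markers lay above it in both groups, with a mean of 12.11 to 12.15 in the control pools and 11.78 to 11.87 in the C26 pools, and Casq1 and Mylpf fell. Array medians ran from 4.93 to 5.02, and arrays correlated at 0.994 to 0.996 within groups and 0.976 to 0.981 between them.

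Of the 54 members, 6 fell in C26 muscle, 0 rose and 48 were not called. Across the array 10.9% of probe sets were called, of which 1049 (4.95%) fell and 1261 (5.94%) rose. With each array centred on its median these became 839 and 1534, and 5 members fell. All 6 that fell belong to the class II pathway: Cd74, H2-Ab1, H2-DMb1, H2-Ea, H2-Aa and H2-Eb1. Whatever the size of the change, 45 of the 54 members were lower and 9 higher in C26, and the 45 include the 6 that fell. The share lower was 83.3%, against 58.2% of all probe sets. The median log2 change of the members was -0.19, beside -0.05 over all probe sets. Where the adjusted p alone decided, 19 members were lower, where the background is 15.8% of probe sets, and 2 were higher, where it is 14.3%. The 2 higher were Canx and H2-Q3, which are also the only members higher at an unadjusted p under 0.05. At that p 24 members were lower, and over the array 4677 probe sets were lower and 3785 higher. By adjusted p alone the methods' t-test, run here with equal variances, had 1 member higher, H2-Q3 (0.0489). With the 1.5-fold minimum it had 0. The counts of 19 and 2 by adjusted p alone depended on the setting. Under the other settings, a comparison added after seeing the data, they ran from 4 to 19 lower and from 0 to 2 higher, with 9 lower by the methods' t-test, 11 with arrays centred on their medians and 10 without C26 pool 4. Without C26 pool 3, C26 pool 4, control pool 1 or control pool 3, 0 were higher. In 26 members every C26 pool lay below every control pool, against 24.6% of all probe sets, and in 2 every C26 pool lay above, against 19.3%. In the other 26 the groups overlapped. 14 members were under the background level in both groups, so 40 were measured above it in at least 1.

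**Figure D1:**
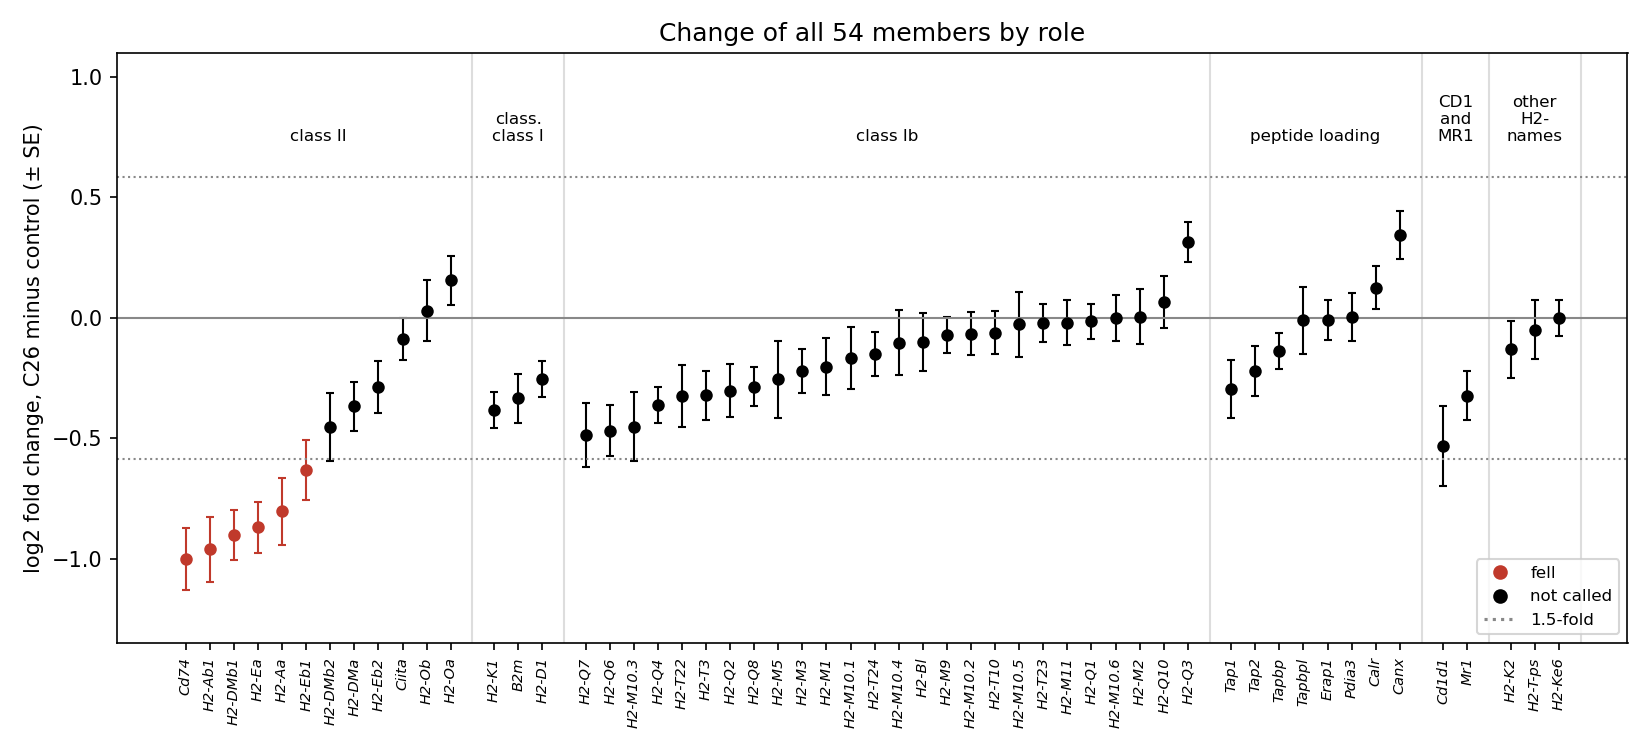
Log2 change (C26 minus control) of each of the 54 members, grouped by role, with its standard error from limma and dotted lines at a 1.5-fold change. The 6 red points, all in class II, fell. Classical class I members lie between -0.38 and -0.25, and class Ib and peptide loading members spread around and below 0.

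The class II pathway moved furthest. 6 of its 12 members fell, against 4.95% of all probe sets, with a median log2 change of -0.54 over all 12. In 9 of the 12 every C26 pool lay below every control pool, against 24.6% of all probe sets. Pool by pool, the median shift of the 12 from the control mean was -0.43 in C26 pool 1, -0.72 in pool 3 and -0.54 in pool 4, so each C26 pool showed it. With a test of unequal variances 2 of the 12 fell, H2-DMb1 and H2-Ea.

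Cd74, the invariant chain, showed the largest fall. Its log2 expression was 7.71, 7.69 and 7.48 in the control pools and 6.90, 6.43 and 6.53 in the C26 pools. The groups did not overlap, with C26 pool 1 nearest to control. The C26 mean was 0.499 of the control mean (log2 SE 0.13), at an adjusted p of 0.000582.

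H2-Aa and H2-Ab1 encode the alpha and beta chains of the I-A molecule. H2-Ab1 measured 7.19, 7.27 and 7.24 in control and 6.57, 6.27 and 5.98 in C26. Its control pools were tightly grouped and its C26 pools spread over a wider range, all of it lower. The log2 change was -0.96 (SE 0.14, adjusted p = 0.00095). H2-Aa measured 6.15, 6.46 and 5.88 in control and 5.47, 5.31 and 5.30 in C26, here with the wider spread in control. Its log2 change was -0.80 (SE 0.14, adjusted p = 0.0026).

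H2-Ea and H2-Eb1 encode the alpha and beta chains of the other class II molecule, I-E. H2-Ea measured 7.49, 7.28 and 7.17 in control and 6.59, 6.36 and 6.39 in C26, a log2 change of -0.87 (SE 0.11, adjusted p = 0.000408). RefSeq lists H2-Ea as a transcribed pseudogene because the reference strain C57BL/6 does not express it, whereas both parents of CDF1 carry the d haplotype, which does. H2-Eb1 measured 6.82, 7.12 and 6.83 in control and 6.53, 6.18 and 6.18 in C26. All C26 pools were lower, yet the log2 change of -0.63 (SE 0.12, adjusted p = 0.00517) stood close to the 1.5-fold minimum. It went under that minimum without C26 pool 3 or 4 (-0.57 in each case) and without control pool 2 (-0.54), and with arrays centred on their medians (-0.57). H2-Eb2, a further beta chain gene, was not called at -0.29 (SE 0.11).

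The H2-DM molecule loads peptides onto class II, and its alpha chain is H2-DMa and its beta chains are H2-DMb1 and H2-DMb2. H2-DMb1 measured 3.69, 3.82 and 3.88 in control and 3.08, 2.86 and 2.75 in C26. Its log2 change was -0.90 (SE 0.10, adjusted p = 0.000309), but its group means lay at or under the background level, so the size of the fall is uncertain. H2-DMb2 measured 4.48, 4.36 and 4.81 in control and 4.20, 3.86 and 4.23 in C26. H2-DMa measured 4.67, 4.97 and 4.68 in control and 4.32, 4.46 and 4.44 in C26. Both were lower at adjusted p of 0.0398 and 0.0241, with log2 changes of -0.45 (SE 0.14) and -0.37 (SE 0.10) that missed 1.5-fold.

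H2-Oa and H2-Ob, the chains of the H2-DM inhibitor H2-O, and Ciita, the master regulator of class II transcription, all lay near background. Ciita measured 3.54, 3.62 and 3.81 in control and 3.56, 3.56 and 3.59 in C26. The groups overlapped and the log2 change was -0.09, with a 95% interval from -0.29 to 0.11, so a change of Ciita was not measurable at this level. H2-Ob (0.03, interval -0.26 to 0.32) and H2-Oa (0.16, interval -0.08 to 0.39) were not called either.

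**Figure D2:**
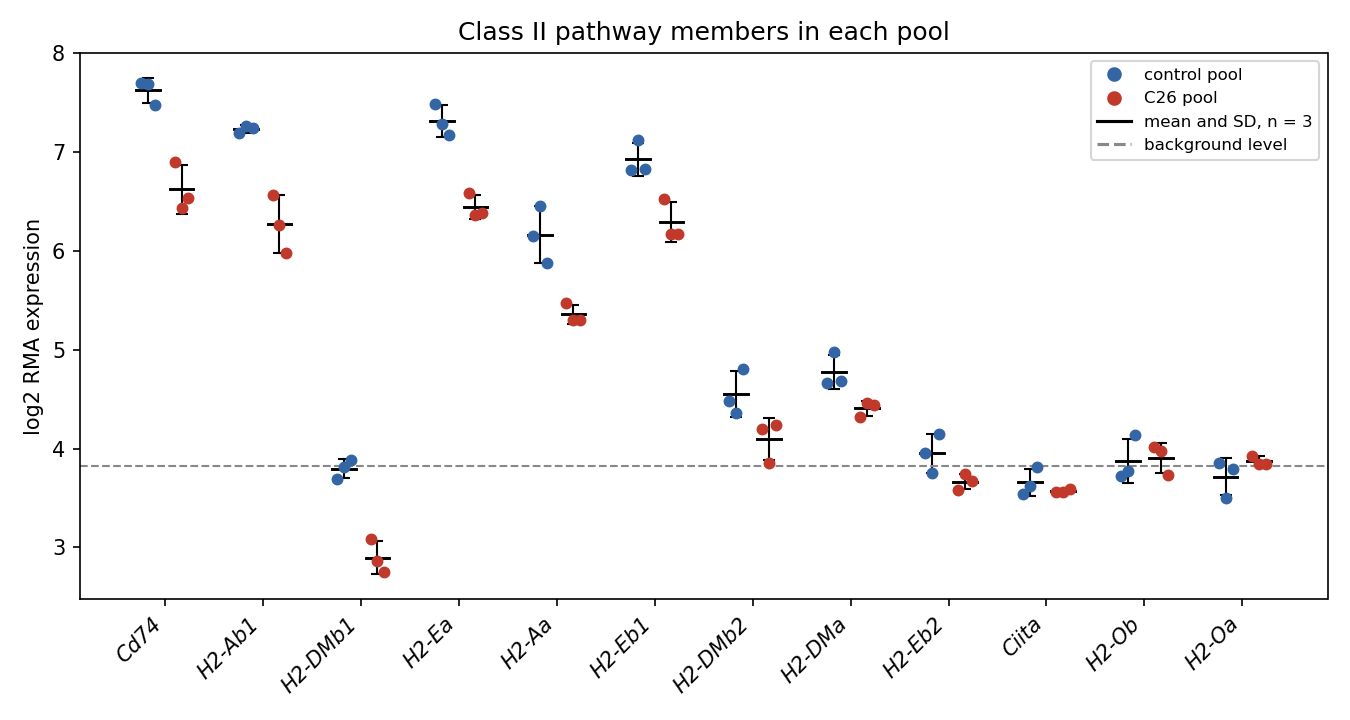
Log2 RMA expression of the 12 class II pathway members in each pool, with the mean and SD of 3 pools per group and the background level of 3.82 as a dashed line. The 6 genes on the left fell, and in each of them the 3 C26 pools lie under the 3 control pools. H2-DMb1 and the 3 genes on the right lie at or near background.

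Class II promoters carry an X box and a Y box, bound by the RFX complex and by NF-Y, and Ciita acts through the factors on them. A promoter window, from 250 bases before to 50 after the start site, was found for 40 of the 54 members in RefSeq (GRCm38.p6), 8 of them in class II. All 8 class II genes hold the Y box letters CCAAT on at least 1 strand, in 8 of their 9 windows, beside 37.4% of all 32851 windows. An X1 match, CCNAGNNAC on either strand, stands in 5 of the 9 windows, from 5 of the 8 genes, and in 17.3% of all windows. In H2-Aa (first base at -180 from the start site) and H2-DMb2 (-192 and -1) the matches lie outside the stretches below. The stretches below show the Y box region for 3 genes that fell and 3 that were not called. They run 5′ to 3′ on the gene's strand, with the Y box, here read as its reverse ATTGG, and any X1 match in capitals:

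H2-Aa: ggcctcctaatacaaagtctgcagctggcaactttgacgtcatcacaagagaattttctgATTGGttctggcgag
H2-Eb1: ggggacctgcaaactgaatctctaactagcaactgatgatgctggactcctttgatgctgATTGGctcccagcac
H2-DMb1: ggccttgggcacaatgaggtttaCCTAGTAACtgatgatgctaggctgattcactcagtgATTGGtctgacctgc
H2-DMb2: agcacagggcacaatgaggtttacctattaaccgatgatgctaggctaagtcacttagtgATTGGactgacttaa
H2-Oa: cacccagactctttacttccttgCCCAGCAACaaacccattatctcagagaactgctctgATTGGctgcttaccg
H2-Ob: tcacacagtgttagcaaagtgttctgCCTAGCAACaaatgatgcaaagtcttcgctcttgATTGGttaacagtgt

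They lie at chr17:34287857-34287931 on the minus strand for H2-Aa, and on the plus strand at chr17:34305748-34305822 for H2-Eb1, chr17:34153070-34153144 for H2-DMb1, chr17:34145099-34145173 for H2-DMb2, chr17:34092276-34092350 for H2-Oa and chr17:34238788-34238862 for H2-Ob. The Y box letters begin 48 bases before the start site in H2-Aa, 59 in H2-Eb1, 61 in H2-DMb1, 90 in H2-DMb2, 43 in H2-Oa and 57 in H2-Ob. Genes that fell and genes that were not called both hold the Y box, and X1 letters lie in this stretch in H2-DMb1, H2-Oa and H2-Ob. Being called is no clean divide here. H2-DMb2 was itself lower at an adjusted p of 0.0398, and H2-DMb1, H2-Oa and H2-Ob lay near or under background. What the letters do was not tested. A match is a run of letters and not a measured site, and an X box that departs from the X1 letters was not marked. Among the factors, Nfyb, a subunit of NF-Y, fell, with a log2 change of -0.76 (SE 0.10, adjusted p = 0.000819), and was not called with unequal variances (adjusted p = 0.086). The other NF-Y subunits were not called, with log2 changes of 0.05 for Nfya and 0.17 for Nfyc. The RFX subunits were not called, with log2 changes of -0.29 for Rfxap (adjusted p = 0.0272), -0.08 for Rfx5 and -0.09 for Rfxank.

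Some endosomal enzymes that prepare class II peptides were higher in C26. In a list of 16 class II regulators and endosomal genes, 5 rose and 1, Nfyb, fell, with a median log2 change of 0.06. Over the array 5.94% of probe sets rose and 4.95% fell. Ctsl, the cathepsin that trims the invariant chain in thymic epithelium, measured 7.66, 7.54 and 7.53 in control and 9.54, 9.56 and 9.61 in C26, a log2 change of 1.99 (SE 0.08, adjusted p = 1.96e-06). Ifi30, the reductase that opens disulfide bonds of antigens, measured 7.30, 7.14 and 7.40 in control and 8.32, 9.13 and 9.21 in C26, a log2 change of 1.61 (SE 0.21, adjusted p = 0.000653). In both genes every C26 pool was above every control pool. Ctss, the cathepsin that trims the invariant chain in dendritic cells and macrophages, rose by 0.60 (SE 0.11), Lgmn by 0.60 (SE 0.08) and Ctsd by 0.68 (SE 0.08), whereas Ctsb was at 0.06 (adjusted p = 0.562). Ctss and Lgmn stood close to the 1.5-fold minimum. Both went under it with cyclic loess or quantile normalization, Ctss also without C26 pool 4 (0.51), control pool 1 (0.56) or control pool 3 (0.53), and Lgmn without C26 pool 1 (0.57). Ctss was not called by the methods' t-test, nor Ctss and Ifi30 with unequal variances. Cathepsins L and D also work in lysosomes of cells without class II.

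Lists of markers of cells that carry class II differed in direction. In bulk muscle RNA, fewer cells of a type and less RNA per cell cannot be told apart. Of 14 dendritic cell markers 11 were lower, with a median log2 change of -0.18, and 6 were lower and 1 higher at an unadjusted p under 0.05. Over the array 4677 of 21212 probe sets were lower and 3785 higher at that p, which the marker counts below should be read beside. Clec10a rose by 1.39 (SE 0.09, adjusted p = 1.97e-05) and Fscn1 fell by 1.11 (SE 0.15, adjusted p = 0.000659). The other 12 were not called. Fscn1 had a control mean of 7.02, beside 3.20 for Itgax. Which cells carry Clec10a and Fscn1 in this muscle was not tested, so their changes are not particular to dendritic cells. Ccr7 (-0.39, adjusted p = 0.0433) and Siglech (-0.28, adjusted p = 0.0477) missed 1.5-fold. The mean log2 expression of that list ran from 4.04 to 4.12 in control and from 3.92 to 4.05 in C26, and 6 of the 14, among them Itgax, Xcr1 and Clec9a, were under background in both groups. Of 13 B cell markers 0 were called, 10 were under background, among them Ms4a1 and Cd79a, and the list mean ran from 3.51 to 3.75 in control and from 3.44 to 3.46 in C26. By unadjusted p under 0.05, 4 B cell markers were lower and 1 was higher. Of the lower ones, Cd79a, Cr2 and Cxcr5 were under background in both groups. Of 15 T and NK cell markers 0 were called, 9 were under background, and 5 were lower and 0 higher at an unadjusted p under 0.05. Among those 5, Cd3g, Cd28, Ncr1 and Gzmb were under background in both groups. The methods' t-test called 0 markers in these B and T cell lists.

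Of 19 macrophage and monocyte markers, 9 rose, 0 fell and 10 were not called. Over the array 5.94% of probe sets rose and 4.95% fell, beside which the calls in this paragraph should be read. The mean of the macrophage list ran from 5.38 to 5.50 in control and from 5.95 to 6.10 in C26. Fcgr1, Cx3cr1 and Timd4, not called, had log2 changes of -0.11, -0.11 and -0.10. Lyve1, a hyaluronan receptor of resident macrophages and lymphatic vessels, rose by 1.73 (SE 0.12), Cd163, a scavenger receptor of macrophages, by 1.28 (SE 0.10), Mrc1, the mannose receptor, by 0.93 (SE 0.08) and Itgam, an integrin of myeloid cells, by 1.71 (SE 0.07). Csf1r and Adgre1, which mark macrophages broadly, had log2 changes of 0.02 (SE 0.08) and 0.00 (SE 0.08). Of 10 neutrophil markers 7 rose, with list means of 3.46 to 3.55 in control and 5.02 to 5.29 in C26. The largest change, which enters these means, was that of Lcn2, a siderophore-binding protein, at 5.40 (SE 0.14). Ly6g, Ngp and Camp were under background in both groups, with log2 changes of 0.47, 1.13 and 0.02. Of 10 endothelial markers 1, Kdr, fell. The part of any of these cells in the lower class II values was not tested.

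**Figure D3:**
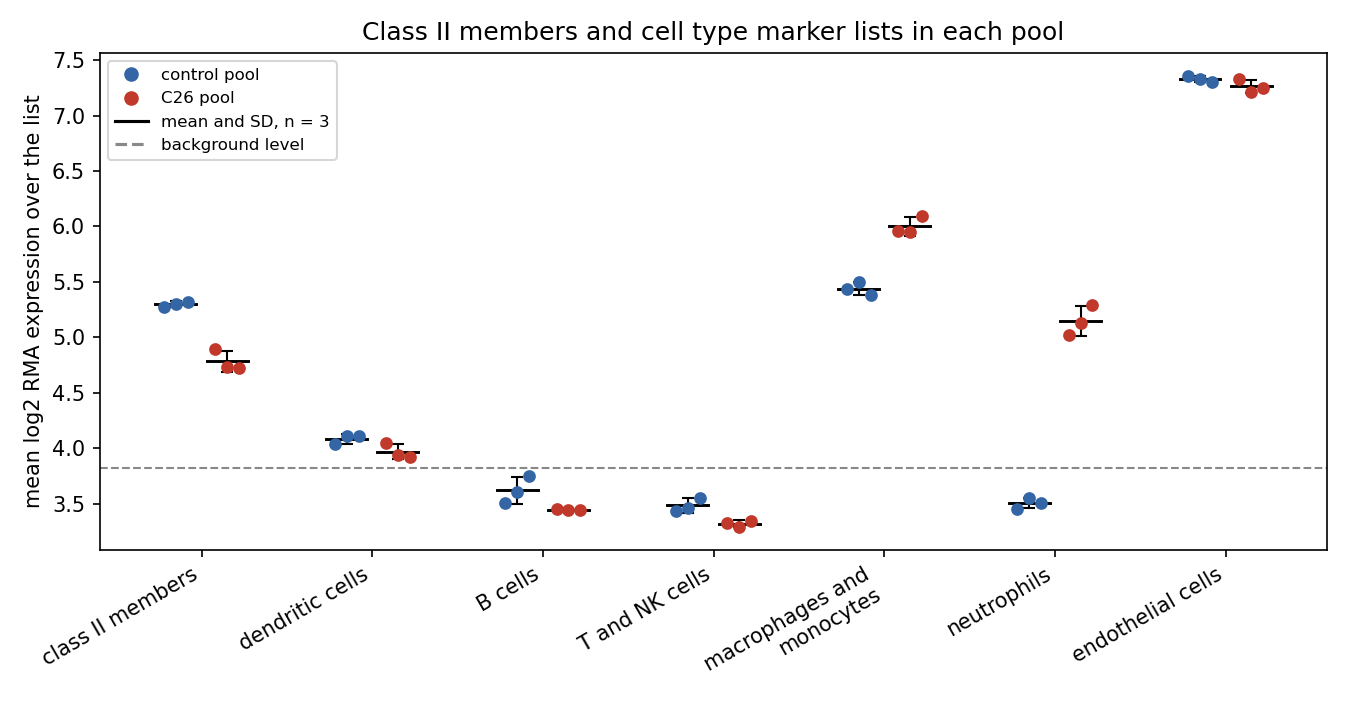
Mean log2 RMA expression over the 12 class II members and over 6 marker lists in each pool, with the mean and SD of 3 pools per group. The class II mean is lower in every C26 pool, the macrophage and neutrophil means are higher in every C26 pool, and the B cell and T and NK cell means lie under the background level of 3.82 in all pools.

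Classical class I was lower by a smaller amount. H2-K1 and H2-D1, the heavy chains, and B2m, the light chain they share, all had C26 pools below control pools, and none reached 1.5-fold. H2-K1 measured 7.87, 7.86 and 7.80 in control and 7.52, 7.46 and 7.39 in C26, a log2 change of -0.38 (SE 0.07, adjusted p = 0.00489). H2-D1 measured 7.93, 7.98 and 7.87 in control and 7.73, 7.65 and 7.64 in C26, a log2 change of -0.25 (SE 0.07, adjusted p = 0.0326). B2m measured 9.70, 9.71 and 9.41 in control and 9.37, 9.19 and 9.25 in C26. Its groups came within 0.04 of each other, at control pool 3 and C26 pool 1, and the log2 change was -0.33 (SE 0.10, adjusted p = 0.0377). The 95% intervals of the 3 log2 changes together span -0.57 to -0.08, all below 0. The adjusted p passed 0.05 for B2m (0.0823) and H2-D1 (0.0969) with arrays centred on their medians and for B2m by the methods' t-test (0.119). It also did for both without C26 pool 3 or 4 or control pool 1 or 2, where B2m lay between 0.0995 and 0.127 and H2-D1 between 0.0795 and 0.109.

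Of the 26 class Ib members, the less polymorphic relatives named H2-Q, H2-T and H2-M, 0 were called, with 9 lower and 1 higher at an unadjusted p under 0.05 and 0 called by the methods' t-test. Over the array 4677 of 21212 probe sets were lower and 3785 higher at that p. 11 of the 26 lay under background in both groups and the median log2 change of all 26 was -0.13. In 11 of the 26 every C26 pool lay below every control pool, against 24.6% of all probe sets. For H2-M5 and H2-T24, among these, the gap between the groups was only 0.04 and 0.02. The Q region genes H2-Q7 and H2-Q6 had the largest shifts. H2-Q7, which encodes the Qa-2 antigen, measured 5.08, 5.19 and 4.90 in control and 4.51, 4.84 and 4.36 in C26 (log2 change -0.49, SE 0.13, adjusted p = 0.0236). Without C26 pool 3 its change was -0.62 and passed the 1.5-fold minimum. H2-Q6 measured 6.68, 6.74 and 6.36 in control and 6.11, 6.09 and 6.17 in C26 (log2 change -0.47, SE 0.11, adjusted p = 0.0107). H2-Q4, H2-Q8, H2-T3 and H2-M10.3 also passed by adjusted p alone, with log2 changes from -0.45 to -0.29. H2-M10.3, which was under background on average in C26, changed by -0.59 and passed without C26 pool 4.

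H2-T23 encodes Qa-1, the ligand of the NK receptor NKG2A, and showed little difference. It measured 6.42, 6.50 and 6.31 in control and 6.36, 6.40 and 6.40 in C26, with overlapping groups and a 95% interval of the log2 change from -0.20 to 0.16, and its sign turned with the scaling. H2-Q3, a pseudogene in RefSeq, was the only H2- member that was higher by adjusted p alone. It measured 4.81, 5.00 and 4.84 in control and 5.17, 5.16 and 5.26 in C26, a log2 change of 0.31 (SE 0.08, adjusted p = 0.0207). H2-Q10, the next highest of the class Ib members, lay under background with a log2 change of 0.07. The class I genes are near copies of each other and no source used here names the strain behind the probes, so signals of H2-K, H2-D, H2-Q and H2-T genes may share RNA and their separate values are uncertain.

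The peptide loading machinery showed no common shift. Of 8 members 0 were called, with 1 lower and 1 higher at an unadjusted p under 0.05 and 0 by the methods' t-test, and the median log2 change was -0.01. Tap1 and Tap2 form the transporter that carries peptides into the endoplasmic reticulum. Tap1 measured 5.70, 5.80 and 5.48 in control and 5.59, 5.24 and 5.27 in C26 (log2 change -0.30, SE 0.12, adjusted p = 0.106). Tap2 measured 6.20, 6.04 and 5.99 in control and 6.04, 5.74 and 5.78 in C26 (log2 change -0.22, SE 0.10, adjusted p = 0.147). In both the groups overlapped, through C26 pool 1.

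Tapbp, or tapasin, bridges the transporter and class I. It measured 7.88, 7.82 and 7.94 in control and 7.80, 7.72 and 7.70 in C26, a narrow separation with a log2 change of -0.14 (SE 0.08, adjusted p = 0.207). Tapbpl, a tapasin relative that edits peptides, had a log2 change of -0.01 (SE 0.14). Erap1, the peptidase that trims class I peptides in the endoplasmic reticulum, measured 6.70, 6.56 and 6.47 in control and 6.59, 6.53 and 6.57 in C26. Its 95% interval ran from -0.20 to 0.18, and the sign of its change turned with the scaling.

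The general chaperones of glycoprotein folding did not follow class I. Canx, calnexin, holds new class I heavy chains and many other glycoproteins, and measured 8.52, 8.52 and 8.41 in control and 8.64, 8.98 and 8.85 in C26. All C26 pools were higher, by a log2 change of 0.34 (SE 0.10, adjusted p = 0.0307) that missed 1.5-fold and, by the methods' t-test, the adjusted p (0.103). Calr, calreticulin, measured 10.12, 10.14 and 9.96 in control and 10.10, 10.20 and 10.30 in C26 (log2 change 0.13, interval -0.07 to 0.33). Pdia3, its thiol oxidoreductase partner, measured 8.33, 8.34 and 8.10 in control and 8.11, 8.31 and 8.37 in C26, and its interval ran from -0.23 to 0.23, with a sign that turned with the scaling. Over 16 other chaperones and folding enzymes the median log2 change was 0.11. Of the 16, 1 rose, against 5.94% of all probe sets, and 0 fell. That gene was Uggt1, the glucosyltransferase that returns misfolded glycoproteins to calnexin, at 0.66 (SE 0.08, adjusted p = 0.00052).

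Cd1d1 and Mr1 are class I-like molecules that show lipids to NKT cells and vitamin B metabolites to MAIT cells. Cd1d1 measured 3.78, 3.93 and 4.30 in control and 3.23, 3.78 and 3.40 in C26, near background and with the closest control and C26 pools almost equal. Its log2 change was -0.53 (SE 0.17, adjusted p = 0.0414). It passed the 1.5-fold minimum without C26 pool 3 (-0.69) and without control pool 1 (-0.64). Mr1 measured 6.98, 7.10 and 7.09 in control and 6.90, 6.54 and 6.75 in C26, a log2 change of -0.32 (SE 0.10, adjusted p = 0.0416). The remaining H2- names, H2-Ke6 (a steroid dehydrogenase in the MHC region), H2-K2 and H2-T-ps, had log2 changes from -0.13 to 0.00.

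**Figure D4:**
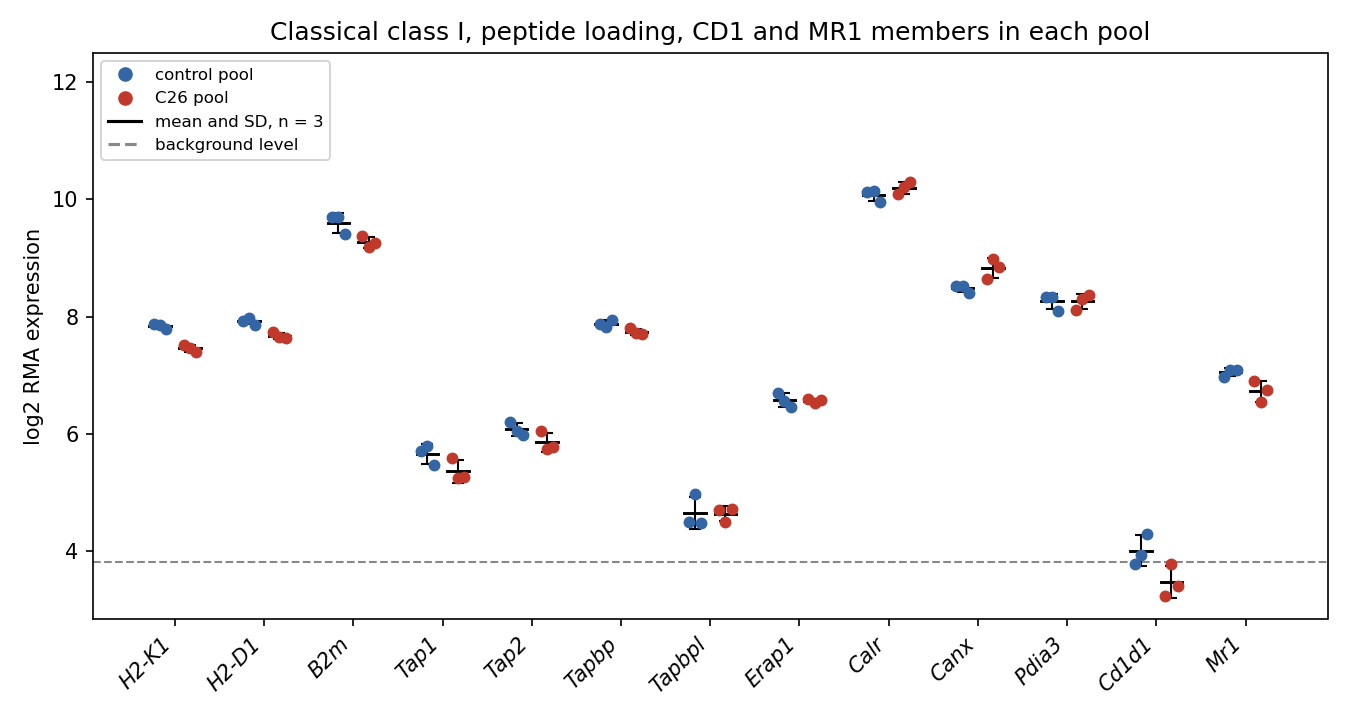
Log2 RMA expression of the classical class I, peptide loading, Cd1d1 and Mr1 members in each pool, with the mean and SD of 3 pools per group and the background level of 3.82 as a dashed line. H2-K1, H2-D1 and B2m lie slightly lower in all C26 pools, Canx slightly higher, and Erap1, Tapbpl and Pdia3 overlap.

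The supply of class I peptides was split. Of 14 proteasome and peptidase genes 1 fell, against 4.95% of all probe sets, and 0 rose, with a median log2 change of 0.13. At an unadjusted p under 0.05, 4 were lower and 4 higher, where 4677 of all 21212 probe sets were lower and 3785 higher. With the 1.5-fold minimum the methods' t-test called 0 higher. Psme1, a subunit of the interferon-induced proteasome activator, fell, with a log2 change of -0.73 (SE 0.08, adjusted p = 0.000261). Psme2, its partner subunit, was not called at -0.27 (adjusted p = 0.198), and its groups overlapped. The immunoproteasome subunits Psmb9 and Psmb10 were lower at adjusted p of 0.00991 and 0.00539, with log2 changes of -0.46 and -0.38, and Psmb8 was at -0.26 (adjusted p = 0.0921). Their constitutive counterparts Psmb6 and Psmb7 were at 0.26 and 0.27 (adjusted p = 0.0554 and 0.0481). Tpp2, a large cytosolic peptidase, was higher by 0.56 (SE 0.08, adjusted p = 0.00108), just under 1.5-fold. Without C26 pool 4 its change was 0.59 and it was called higher.

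In a list of 24 interferon genes, which joins ligand, receptors, kinases and transcription factors to interferon-induced GTPases, 4 fell and 0 rose, with a median log2 change of -0.16. Of these, 9 were lower and 3 higher at an unadjusted p under 0.05, where 4677 of all 21212 probe sets were lower and 3785 higher. The methods' t-test called 0 higher and 2 lower. By limma 4.95% of all probe sets fell and 5.94% rose. Gbp4, an interferon-induced GTPase, measured 7.33, 7.47 and 7.35 in control and 6.43, 5.99 and 6.12 in C26, a log2 change of -1.21 (SE 0.12, adjusted p = 0.000123). Ifngr2, the signaling chain of the interferon gamma receptor, measured 9.53, 9.59 and 9.56 in control and 8.80, 8.66 and 8.70 in C26, a log2 change of -0.84 (SE 0.07, adjusted p = 8.12e-05). The other chain, Ifngr1, was higher by 0.44 (SE 0.08, adjusted p = 0.0034). The GTPases Gbp3 and Igtp fell by 0.69 each, but neither was called by the methods' t-test (adjusted p = 0.124 and 0.0696), and Gbp3 was under background in C26. Irf1, a transcription factor induced by the pathway, was at 0.01 (SE 0.08), and Ifng itself lay under background. Without C26 pool 4 the number that fell was 2, with Gbp3 at -0.49 and Igtp at -0.57, and Gbp3 also missed the adjusted p without C26 pool 3 (0.0523) or control pool 3 (0.0569).

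Co-stimulatory and co-inhibitory ligands, which T cells read together with the MHC, gave 0 calls in 10 genes, and 6 of the 10 were under background. At an unadjusted p under 0.05, 1 was lower and 1 higher, and the methods' t-test called 0. Icam1, an adhesion ligand, was higher by 0.43 (SE 0.11, adjusted p = 0.0146) without reaching 1.5-fold. Among 8 MHC-like genes outside the H2- names 1 rose, against 5.94% of all probe sets, and 0 fell. That gene was Procr, the endothelial protein C receptor, which has an MHC-like fold but presents no peptide, with a log2 change of 0.91 (SE 0.10, adjusted p = 0.000204). Fcgrt, the neonatal Fc receptor that pairs with B2m, was at -0.28 (SE 0.10, adjusted p = 0.0597).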

How the data were processed

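Muscle RNA was hybridized to Affymetrix Mouse Gene 1.0 ST arrays. The authors deposited log2 expression values, made with RMA in GenePattern and the Brainarray custom CDF, with 1 probe set per gene. The RMA steps correct background, normalize by quantiles and summarize probes, which pulls small differences together at low signal. No source used here names the genome build of the probes. Groups came from the sample labels.

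Of 21212 probe sets, 20697 were named uniquely, 1917 of them through RefSeq gene IDs only, and 503 are unnamed here. C26 was compared with control using limma 3.58.1 (lmFit, eBayes) on the deposited values, without a filter, and p-values were adjusted over all probe sets by Benjamini-Hochberg. The 95% intervals use limma's moderated standard errors. The methods name a parametric t-test and do not say whether equal variances were assumed. What is called the methods' t-test here assumed equal variances. It and a test of unequal variances were run as alternatives with the same fold minimum. The number of arrays limits the precision. Per-pool values were given for every called member and for the best-known member of each role, called or not, and the 2 largest changes each way were named in the remaining role groups. From each list of related genes, up to 4 called genes with the largest change and those the list is named for were given, and cell type markers were named after their values were seen. The members and gene lists were chosen with earlier results of these data known. The alternatives were other tests, variance models, filters, scalings and fold minimums, a replicate block, leaving out each array and platform symbols alone. The replicate block compares only the pools numbered 1 and 3, the numbers that stand in both groups.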

Additional observations from a re-analysis of the deposited data

How the results depend on the processing

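The members that fell numbered 6, and 5 to 7 when each array was left out in turn. They numbered 7 with a replicate block, 5 with the methods' t-test, 2 with a test of unequal variances, 1 with a 2-fold minimum and 19 with no minimum, where 2 were higher. The class II members that fell numbered 2 with unequal variances and 1 with a 2-fold minimum. Over all probe sets 1261 rose and 1049 fell; these were 760 and 621 with unequal variances, 432 and 307 with a 2-fold minimum, 3041 and 3344 with no minimum and 1534 and 839 with arrays centred on medians. The cause of these shifts in count beyond the stricter or looser threshold was not tested.

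The replicate numbers 1 and 3 stand in both groups, and the labels pair no samples. Deviations from the group means correlated at -0.06 and -0.06 for these numbers, where all pairs of pools ran from -0.06 to 0.07. With 3 pools a group these values depend on each other. They cannot show whether pools of 1 number shared a step. The block compares only pools 1 and 3 of each group, since control pool 2 and C26 pool 4 share their number with no other pool. It therefore has less to measure the spread with than the main fit. By adjusted p alone, 8 members were lower and 0 higher with the block, which lost B2m (0.179), H2-D1 (0.30) and H2-K1 (0.0972). With the 1.5-fold minimum it lost H2-Eb1 (-0.48, adjusted p = 0.0526 by limma) and gained H2-DMb2 (-0.62) and H2-M10.3 (-0.63). Cd74, H2-Aa and H2-Ab1 missed the threshold with unequal variances, and H2-Eb1 also did with arrays centred on medians (-0.57) and with both t-tests.

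In the gene lists, the endosomal genes that rose numbered 3 with cyclic loess or quantile normalization (without Ctss and Lgmn) or unequal variances (without Ctss and Ifi30) and 2 with a 2-fold minimum, and those that fell 0 with unequal variances or a 2-fold minimum and 2 with no minimum. The interferon genes that fell numbered 2 with a filter at the median level, a replicate block or the methods' t-test, 1 with unequal variances or a 2-fold minimum, 8 with no minimum (3 higher) and 2 to 6 with an array left out. The peptide supply genes that rose numbered 1 with arrays centred on medians or a replicate block, 2 with no minimum (3 lower) and 0 to 1 with an array left out, and those that fell 0 with a 2-fold minimum. Folding genes that rose numbered 3 with no minimum and 0 with a 2-fold minimum. Co-stimulatory ligands that rose numbered 1 with no minimum. MHC-like genes that rose numbered 0 with unequal variances or a 2-fold minimum, and 1 was lower with no minimum.

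No member that fell changed sign. Small changes did turn. With arrays centred on medians, Erap1 was 0.056, H2-T23 0.043 and H2-Ke6 0.064. Pdia3 was -0.039 with cyclic loess, -0.083 with quantile normalization and -0.0087 with a replicate block, where H2-T23 was 0.017. With 1 array left out, Erap1 ran from -0.062 to 0.054, Pdia3 from -0.074 to 0.077, H2-Ob from -0.048 to 0.16, H2-Q10 from -0.037 to 0.16, H2-T23 from -0.072 to 0.023 and H2-Ke6 from -0.046 to 0.031. Signal over background limits H2-DMb1, Ciita, H2-Oa, H2-Ob, Cd1d1 and the 14 members under background.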
